A study of Danio rerio with 6 samples.

Results

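Genes of heme synthesis and of the red blood cell were described in zebrafish cells of a gate labelled endothelial, sorted by an NF-kB reporter. The genes were chosen by name as alas2, hmbsa, hmbsb, urod, fech, slc25a37, slc4a1a, sptb, nt5c2l1 and epor, and each of the 10 was found among the 2471 genes analysed. The embryos, at 22 hours post fertilization, came from a cross of NFKB:d2eGFP, in which NF-kB activity drives a short-lived green fluorescent protein, with kdrl:mCherry, in which the promoter of the VEGF receptor gene kdrl drives a red one. Trunks were cut out and dissociated, and dead cells were gated out. Cells with the red fluorescent protein were sorted by green fluorescence into an NFKB+ and an NFKB- fraction, with about 7000 cells in each sample. Each sort has 3 libraries, all of the same genotype, age and handling, and per the labels they differ by the reporter gate alone. The gate is a fluorescence reading and NF-kB was not perturbed, so a difference between the sorts goes with reporter fluorescence and is not shown to be an effect of NF-kB. The labels call the libraries biological replicates without saying whether separate pools of embryos were used, so p-values may measure technical spread.

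Heme is built in 8 enzymatic steps that start and end in the mitochondrion, where ferrochelatase at last inserts iron into the finished ring. Red blood cells need it in large amounts for hemoglobin, and in vertebrates they use their own form of the first enzyme, ALAS2, and a dedicated mitochondrial iron importer, mitoferrin. Around the hemoglobin lies a membrane carried by spectrin and crossed by the anion exchanger band 3, and the erythropoietin receptor gives the survival signal to the precursors. In zebrafish embryos the first such cells, the primitive erythrocytes, arise in the trunk from mesoderm close to the angioblasts. Several of the genes are known from zebrafish anemia mutants, among them alas2 (sauternes), urod (yquem), fech (dracula), slc25a37 (frascati), slc4a1a (retsina) and sptb (riesling).

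The deposited table had been filtered by the authors on this very comparison, at 2-fold and adjusted p 0.01, so a gene could appear in it only if it differed between the sorts. The background for every count is therefore high. In a limma fit 100% of the 2471 genes passed adjusted p 0.05, 45.5% of them as lower and 54.5% as higher in NFKB+ cells, and the sorts did not overlap for 99.6%. Tests on the named genes follow from that filter and are given as a description. Levels are log2 of normalized reads plus 1, and differences are NFKB+ minus NFKB-. They are not divided by transcript length, so levels of different genes are not compared. Recovered reads in the table came to about 8393822 to 15165088 per library, which covers the selected genes and is not the library depth.

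Every one of the 10 genes was lower in NFKB+ cells, by similar amounts. The falls ran from 5.31-fold for slc25a37 to 7.86-fold for nt5c2l1. Their median log2 difference was -2.64, against -1.52 for the 1124 genes that were lower and 1.08 for all genes of the table. Medians of the listed myeloid markers, thrombocyte markers and embryonic globins were lower still, at -3.12, -3.10 and -2.88. That of the listed pan-endothelial markers was 1.54. All 10 were at least 4-fold lower. So were 365 genes in all, which is 14.8% of the table, out of the 1124 genes that were lower. Adjusted p-values from limma lay between 2.84e-11 and 3.01e-09. The gap between the highest NFKB+ library and the lowest NFKB- library was 2.03 to 2.70 on the log2 scale, while the SD within a sort was at most 0.29. With bulk RNA of sorted cells, fewer cells of a type and less RNA per cell cannot be told apart. Scaling the libraries to the same total of table reads, which moved the median of all genes by 0.49, left 8 of the 10 at 4-fold or more, with slc25a37 and hmbsa at log2 differences of -1.92 and -1.98 and the median of the 10 at -2.15. Median-ratio scaling, which moved the median of all genes by -0.88, put the median of the 10 at -3.52.

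The 10 genes held 0.984% ± 0.0839 (SD, n = 3) of the table's reads in the NFKB+ sort, against 4.41% ± 0.255 (SD, n = 3). Markers of other cell types moved with the sorts as well. Every gene of the table had passed the authors' filter on this comparison, 45.5% as lower and 54.5% as higher in NFKB+ cells. The counts of markers are therefore given as a description. Of the 16 pan-endothelial markers in the table, from a list of 22, 15 were higher in NFKB+ cells and tal1, which is also a blood gene, was lower. Their summed level was 19.24 to 19.29 in NFKB+ and 17.69 to 18.05 in NFKB- libraries. All 16 myeloid markers in the table, of 19 listed, were lower, as was 45.5% of the table. The summed level of these markers was 14.15 to 14.39 against 17.43 to 17.74. The 4 thrombocyte markers in the table, of 8 listed, were lower too, at 10.71 to 10.96 against 13.51 to 13.81, and itga2b was at 0 in NFKB+ library 3. Among these 4, nfe2 is also listed as an erythroid factor. It gave the most normalized reads to the sum, with means of 888 in NFKB+ and 6057 in NFKB- cells. The embryonic globins, whose 5 analysed genes were all lower, reached 19.25 to 19.54 in NFKB+ and 22.11 to 22.59 in NFKB- libraries, so that erythrocyte transcripts were present in both sorts of a gate labelled endothelial. Among the endothelial markers, kdrl and cdh5 stood at 15.04 ± 0.041 and 15.57 ± 0.037 (SD, n = 3) in NFKB+ cells. In NFKB- cells they stood at 13.84 ± 0.26 and 14.00 ± 0.19 (SD, n = 3). The promoter of kdrl drives the red protein of the gate, so its level is not independent of the sorting. No library of cells without the red protein was there to set these levels against. The part of these cell types in the differences below was not tested.

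**Figure D1:**
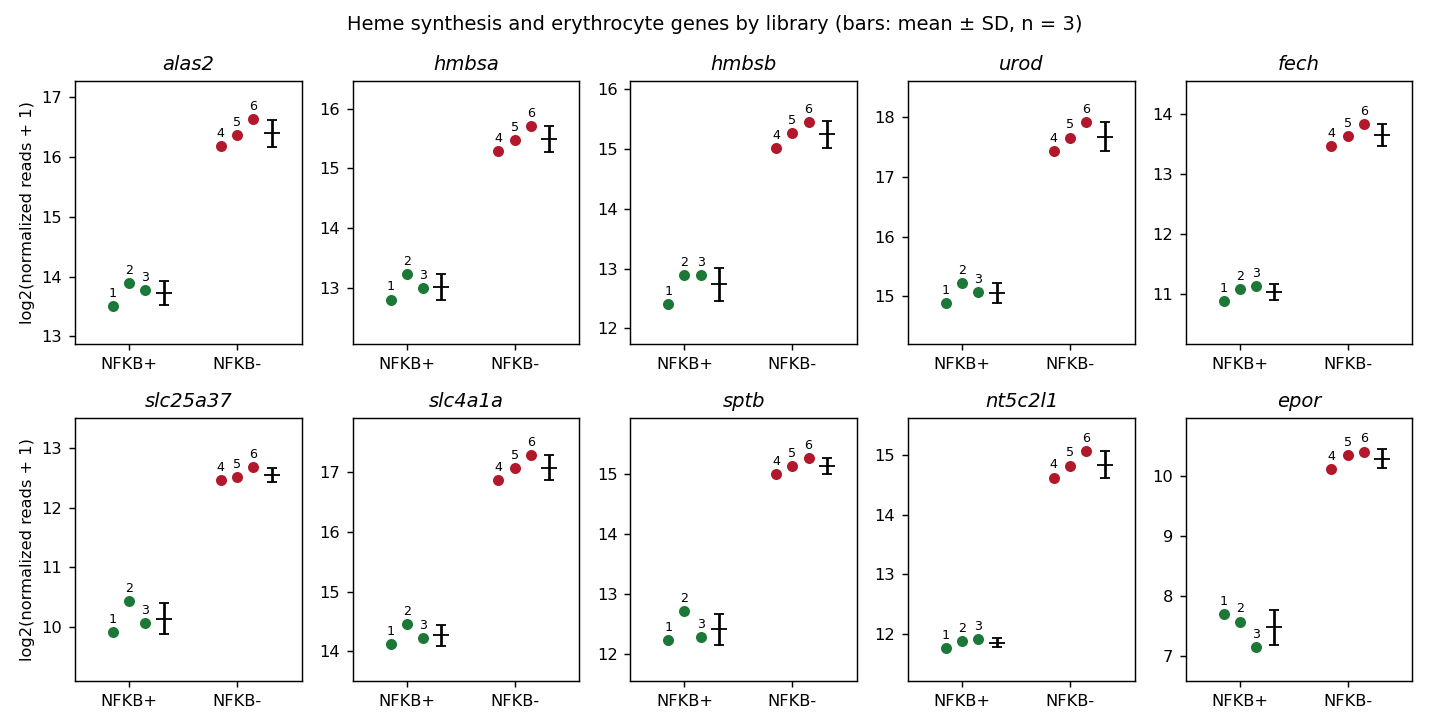
Level of each of the 10 genes, as log2(normalized reads + 1), in the 3 NFKB+ (green, libraries 1 to 3) and 3 NFKB- (red, libraries 4 to 6) libraries, with the mean ± SD beside them. Each panel spans the same height on the log2 scale, and in each the smallest gap between the sorts is at least 2.03.

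The chain of heme synthesis opens with alas2 (NCBI Gene 64607), the erythroid aminolevulinate synthase, which sets the pace of the pathway in red cells. Its level was 13.51, 13.89 and 13.78 in NFKB+ libraries 1, 2 and 3, and 16.18, 16.37 and 16.63 in NFKB- libraries 4, 5 and 6. The sorts did not overlap, and the NFKB+ mean of 13.73 ± 0.19 was 6.35-fold below the NFKB- mean of 16.39 ± 0.22 (SD, n = 3). Hydroxymethylbilane synthase joins porphobilinogen units into a chain and has a pair of genes in zebrafish. The copy hmbsa (Gene 394129) stood at 12.81, 13.24 and 13.01 against 15.29, 15.48 and 15.71. The copy hmbsb (Gene 338290) stood at 12.41, 12.89 and 12.90 against 15.01, 15.26 and 15.46. They fell 5.56- and 5.69-fold, and the difference between the copies changed by -0.032 on the log2 scale (exact two-sided permutation test, p = 0.8, n = 3 per sort). Their reads could have been shared if the sequences of the copies are alike, and the sources used here do not say how such reads were counted.

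Uroporphyrinogen decarboxylase, which trims the ring's side chains, is encoded by urod (Gene 30617). Its libraries read 14.89, 15.22 and 15.08 in NFKB+ and 17.44, 17.66 and 17.91 in NFKB- cells. NFKB- library 6 was the highest and NFKB+ library 1 the lowest of the 6, and the fall was 6.09-fold, with a log2 difference of -2.61 ± 0.15 (standard error). Ferrochelatase (fech, Gene 58215), the last enzyme, inserts iron to make heme. Its levels were 10.88, 11.08 and 11.13 against 13.47, 13.64 and 13.83. The sorts were again apart, by 6.16-fold, and the error of the log2 difference, -2.62 ± 0.12 (standard error), was the second smallest of the 10 genes. The changes of fech and urod differed by -0.016 on the log2 scale (fech minus urod), less than the spread between libraries (exact two-sided permutation test, p = 0.9, n = 3 per sort).

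The remaining enzymes of the pathway were also in the table, so that each of the 8 steps was represented, by 9 genes. None of them overlapped between the sorts, and neither did 99.6% of the table. Porphobilinogen synthase (alad) had 12.72 ± 0.12 in NFKB+ and 15.04 ± 0.21 in NFKB- cells (SD, n = 3), a fall of 5.01-fold. Uroporphyrinogen synthase (uros), which closes the ring, was 4.96-fold lower. Coproporphyrinogen oxidase (cpox) was 6.45-fold lower and protoporphyrinogen oxidase (ppox), the gene of the zebrafish mutant montalcino, 5.71-fold lower. Along the pathway the log2 differences thus spanned 0.38, from -2.69 for cpox to -2.31 for uros. The carrier gene tmem14ca, whose mouse counterpart moves protoporphyrinogen into the mitochondrion, was 6.12-fold lower. Of the 15 listed genes of heme synthesis, 10 were in the table. All 10, with a median of -2.56, were lower, as was 45.5% of the table. The housekeeping synthase alas1 and the genes abcb10, clpxa, clpxb and sucla2 were not analysed here.

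**Figure D2:**
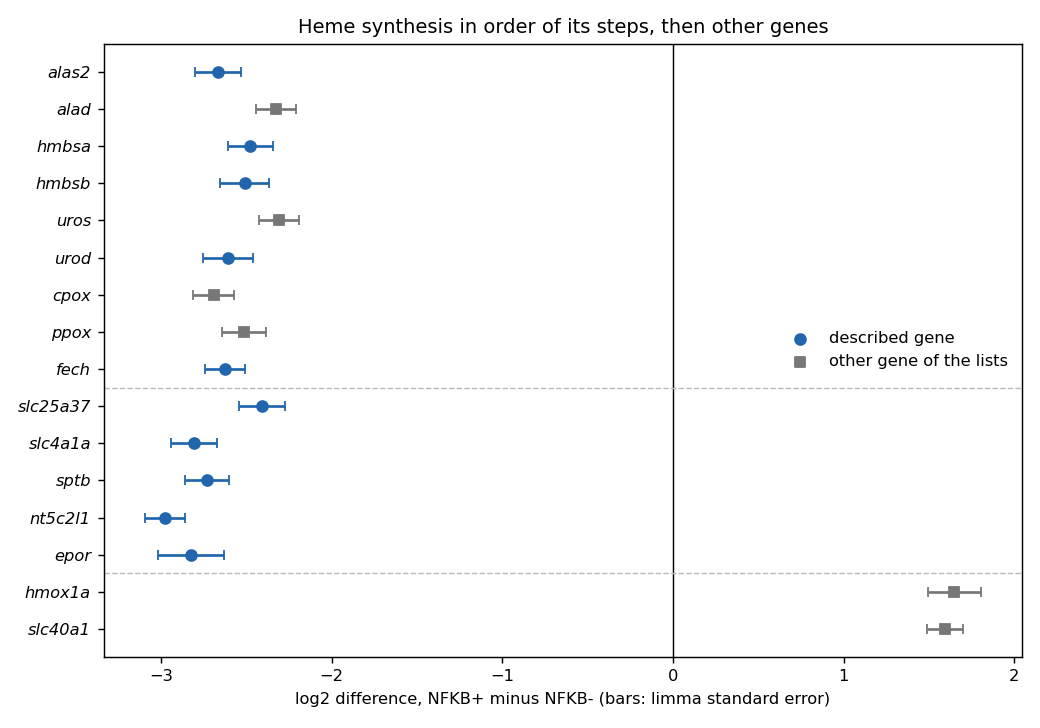
Log2 difference between the sorts, NFKB+ minus NFKB-, with its limma standard error, for the 9 genes of heme synthesis in the order of the steps, then the other 5 described genes, then hmox1a and slc40a1. Blue circles are the 10 described genes and grey squares other listed genes. The heme synthesis genes lie between -2.69 and -2.31, and hmox1a and slc40a1 lie on the other side of 0.

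Mitoferrin 1 (slc25a37, Gene 387000) carries iron into the mitochondria of erythroid precursors. It stood at 9.92, 10.43 and 10.07 in NFKB+ and at 12.46, 12.51 and 12.68 in NFKB- libraries. This was the smallest fall of the 10 genes, 5.31-fold, with a log2 difference of -2.41 ± 0.14 (standard error). Iron uptake genes went the same way. The transferrin receptor gene tfr1a, which is required in zebrafish erythroid cells, was 5.40-fold lower, and the iron transporter gene slc11a2, known as DMT1, was 5.94-fold lower. The paralog tfr1b was 2.25-fold lower, at 9.17 ± 0.22 against 10.34 ± 0.24 (SD, n = 3). Scaling to the same total of table reads brought its log2 difference from -1.17 to -0.68. The iron-sulfur cluster gene glrx5 was 4.08-fold lower, the ferritin gene fth1a 3.68-fold lower and transferrin, tfa, 3.06-fold lower. The iron exporter ferroportin (slc40a1, Gene 58153) was an exception, at 13.10, 13.24 and 13.23 in NFKB+ against 11.72, 11.59 and 11.47 in NFKB- libraries, which is 3.02-fold higher, or 1.64-fold under median-ratio scaling. Of the 17 listed genes of iron supply and storage, 8 were in the table, with a median of -1.95. Of these 7 were lower and 1 higher, against 45.5% and 54.5% of the table.

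Genes that break heme down were divided. Heme oxygenase 1a (hmox1a, Gene 791518), which opens the ring, was 3.14-fold higher in NFKB+ cells, at 12.11, 12.20 and 12.36 against 10.54, 10.23 and 10.96, or 1.70-fold higher under median-ratio scaling. Under the same total of table reads the log2 difference of hmox1a rose from 1.65 to 2.14. The biliverdin reductase genes blvrb and blvra, which act on the product, were 6.87- and 3.21-fold lower. The heme-binding protein gene hebp2 was 2.94-fold lower, which made 3 lower and 1 higher of the 4 genes analysed, from a list of 11. Like slc40a1 and hmox1a, 15 of the 16 pan-endothelial markers were higher in NFKB+ cells, as was 54.5% of the table. The globins were lower, as was 45.5% of the table. A link between these sets of genes was not tested.

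Band 3, the anion exchanger that swaps chloride for bicarbonate across the red cell membrane, is encoded by slc4a1a (Gene 84703). Its level was 14.13, 14.46 and 14.22 in NFKB+ and 16.86, 17.06 and 17.29 in NFKB- libraries. The difference of 6.98-fold left a gap of 2.41 between the closest libraries of the sorts. Erythroid beta-spectrin (sptb, Gene 58040) is a strand of the mesh under that membrane. It stood at 12.23, 12.71 and 12.29 against 15.01, 15.14 and 15.27, a fall of 6.63-fold. NFKB+ library 2 was the highest of its sort for sptb, as it was for slc4a1a, alas2, hmbsa, urod and slc25a37. Other parts of the same membrane fell too, with the ankyrin gene ank1a 7.33-fold, the tropomodulin gene tmod4 6.97-fold, the protein 4.1 gene epb41b 6.57-fold, and the Rh family genes rhd and rhag 6.25- and 4.72-fold lower. Of the 21 listed membrane and skeleton genes 9 were in the table, with a median of -2.71. Of these 7 were lower, as was 45.5% of the table. The exceptions were 2 transporter genes, while the transporter gene slc4a1a was among the lower ones. The water channel gene aqp8a.1 was 6.09-fold higher, at 13.27 ± 0.054 against 10.66 ± 0.19 (SD, n = 3), or 3.31-fold under median-ratio scaling. Under the same total of table reads its log2 difference rose from 2.61 to 3.10. Also higher were 15 of the 16 pan-endothelial markers and 54.5% of the table. Which cells the reads of aqp8a.1 came from was not tested. The glucose transporter gene slc2a1a had few reads and overlapping sorts, at 3.51, 6.56 and 6.91 against 3.33, 1.95 and 4.58 (limma adjusted p = 0.013). Its call was lost without NFKB+ library 3 (adjusted p = 0.0818), NFKB- library 4 (0.0527) or NFKB- library 5 (0.0604), and over all alternatives its adjusted p ranged from 2.41e-05 to 0.134.

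The nucleotidase gene nt5c2l1 (Gene 447810), of a family of enzymes that take phosphate off nucleotides, had the largest fall of the 10. Its level was 11.78, 11.89 and 11.92 in NFKB+ and 14.62, 14.82 and 15.06 in NFKB- libraries. The NFKB+ libraries were close together, with an SD of 0.074, and lay 2.70 below the nearest NFKB- library. The log2 difference was -2.97 ± 0.12 (standard error), or 7.86-fold. Among other red cell enzymes the carbonic anhydrase gene cahz was 7.24-fold, the AMP deaminase gene ampd3b 6.47-fold, the peroxiredoxin gene prdx2 4.52-fold and the catalase gene cat 3.51-fold lower. These made 5 of 5 lower, from a list of 14, with a median of -2.69, where 45.5% of the table was lower.

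The erythropoietin receptor gene epor (Gene 751109) had the fewest reads of the 10. They came to 200, 158 and 219 in the NFKB+ and 984, 1365 and 1252 in the NFKB- libraries, before scaling. On the log2 scale this was 7.70, 7.57 and 7.14 against 10.12, 10.35 and 10.41, a fall of 7.07-fold with the widest standard error of the 10, 0.19. NFKB+ library 3 was the lowest for epor, whereas the other 9 genes were lowest in library 1. The kinase gene jak2a, which acts below the receptor, was 4.49-fold lower and the factor gene stat5a 2.52-fold lower. Scaling to the same total of table reads brought stat5a from a log2 difference of -1.33 to -0.84. Feedback inhibitor genes of cytokine receptors went the other way. The gene cish was 2.07-fold higher, at 8.98 ± 0.12 against 7.93 ± 0.098 (SD, n = 3), and socs3b 2.84-fold higher, at 12.82 ± 0.54 against 11.31 ± 0.59 (SD, n = 3). Median-ratio scaling ended the calls of cish and socs3b (limma adjusted p = 0.358 and 0.0873), each the highest of its alternatives, which began at 7.43e-06 and 6.54e-09. The ligand genes epoa and epob were not analysed here.

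Transcription factors of the erythroid program were lower as well, 9 of 9 in the table from a list of 21, with a median of -2.57. The erythroid factor genes klf1, nfe2 and gata1a, the last a master regulator of red cell genes, were 7.42-, 6.81- and 6.65-fold lower. The genes klf17 and gfi1b were 6.04- and 5.96-fold lower. The other listed factor genes in the table were lower by less, with znfl2a at 5.26-fold, blf at 4.43-fold, tal1 at 2.50-fold and gfi1aa at 2.01-fold. From the list for mitochondrial clearance and other late remodelling, tspo was 5.31-fold and xpo7 2.63-fold lower. The other 6 of 8 listed, with bnip3la, bnip3lb and ulk1a among them, were not analysed here. Over all 8 pathway lists, without the 10 named genes, 42 of 109 genes were in the table. Of these 36 were lower and 6 higher, against 45.5% and 54.5% of the table, with a median of -2.27. The lists were chosen with earlier results of these data known, so the counts are given as a description. A listed gene that is not in the table may have missed the authors' limits or carry another symbol there.

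**Figure D3:**
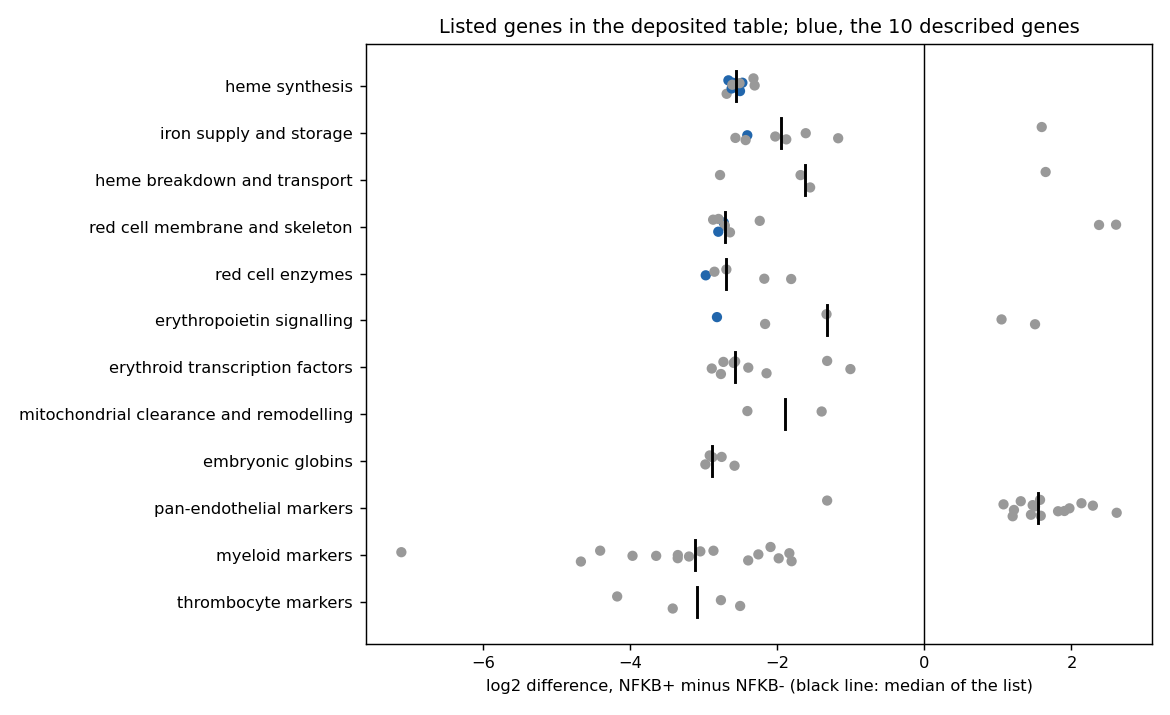
Log2 difference, NFKB+ minus NFKB-, of each listed gene in the deposited table, by list, with the 10 described genes in blue and the list median as a black line. The 5 globins and the heme synthesis genes form tight groups, with medians of -2.88 and -2.56, while iron, heme breakdown, membrane and erythropoietin signalling lists have genes on both sides of 0.

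The order of the falls, from the largest, was nt5c2l1, epor, slc4a1a, sptb, alas2, fech, urod, hmbsb, hmbsa and slc25a37. The whole order spanned 0.56 on the log2 scale. Differences between the falls were taken within each library, which makes them independent of the scaling between libraries, for all 45 pairs. None of the 9 neighbouring pairs in the order separated the sorts, so neighbours could not be ranked beyond the spread between libraries. Of all 45 pairs 20 did not overlap. Distance in the order did not decide this, since alas2 and urod separated at a change of -0.060 and no pair with epor did. The share over other pairs of table genes was not computed, so the count is given as a description. The ratio of nt5c2l1 to slc25a37, the ends of the order, was lower in every NFKB+ library, at 1.72 ± 0.23 against 2.28 ± 0.11 on the log2 scale (SD, n = 3). Band 3 and hmbsa separated too, with their log2 ratio at 1.25 ± 0.059 against 1.58 ± 0.0092 (SD, n = 3). With 3 libraries against 3 the exact permutation test cannot go below p = 0.1, and the smallest adjusted p over the 45 pairs was 0.225, so no pair passed.

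The 10 genes were also set against globin within each library. The summed reads of the 5 globin genes were 7.51-fold lower in NFKB+ cells, more than most genes of the table, so a higher number of reads per globin read was the common case. Every NFKB+ library was above every NFKB- library on this measure for 89.7% of the table, for 77.3% of its genes that were lower in NFKB+ cells, and for 6 of the 10. That is no more often than in the table, and it is given as a description. For each 10000 globin reads, urod had 486, 508 and 453 reads in NFKB+ and 393, 388 and 392 in NFKB- libraries. The sorts did not overlap, with a ratio of 1.23. They did not overlap for alas2 (ratio 1.18), fech (1.22), hmbsb (1.32), hmbsa (1.35) and slc25a37 (1.41) either, nor for cpox, ppox, alad and uros, at ratios between 1.16 and 1.51. The sorts overlapped for slc4a1a (1.08), sptb (1.13), nt5c2l1 (0.955) and epor (1.06). For nt5c2l1 the counts per 10000 globin reads were 56.2, 50.3 and 50.6 in NFKB+ and 55.8, 54.3 and 54.3 in NFKB- libraries. None of the 10 ratios could pass the exact permutation test at this size, with a smallest adjusted p of 0.167. Near-identical globin copies may have shared reads, which could move the sum.

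**Figure D4:**
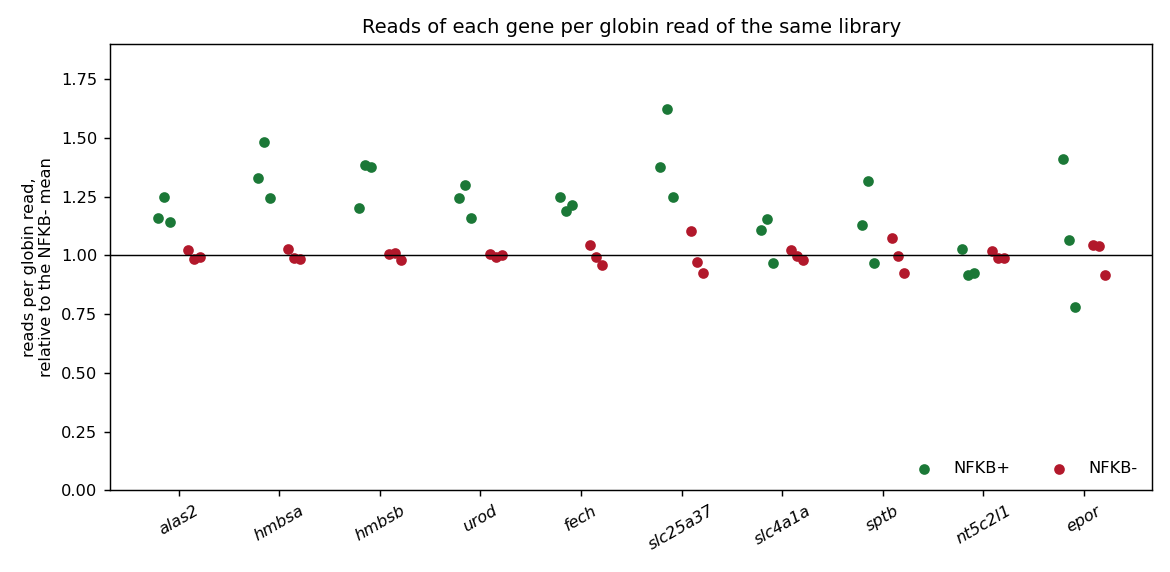
Normalized reads of each of the 10 genes per globin read of the same library, divided by the NFKB- mean of that gene, for the 3 NFKB+ (green) and 3 NFKB- (red) libraries. The NFKB+ points lie above all NFKB- points for the 5 heme synthesis genes and slc25a37. The ranges of the sorts overlap for slc4a1a, sptb, nt5c2l1 and epor.

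The genes varied together from library to library within the NFKB- sort, and less uniformly within the NFKB+ sort. In NFKB- cells all 10 were lowest in library 4 and highest in library 6, as were 26.1% of the table's genes. Their median deviation from the sort mean was -0.21 in library 4 and 0.21 in library 6. In NFKB+ cells 9 of the 10 were lowest in library 1, as were 42.2% of the table's genes, and the exception was epor. The highest NFKB+ library was library 3 for hmbsb, fech and nt5c2l1, library 1 for epor and library 2 for the others. The median deviations there were -0.18, 0.16 and 0.0017 in libraries 1, 2 and 3. The globins had the same pattern in NFKB- cells, with median deviations of -0.26, -0.027 and 0.27 in libraries 4, 5 and 6. The pan-endothelial markers had the opposite, with 0.26, -0.095 and -0.16. Of all reads in the table, globins took 35.9%, 39.7% and 41.7% in libraries 4, 5 and 6. Genes of the same library share its depth and scaling, so these deviations are not independent of each other.

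**Figure D5:**
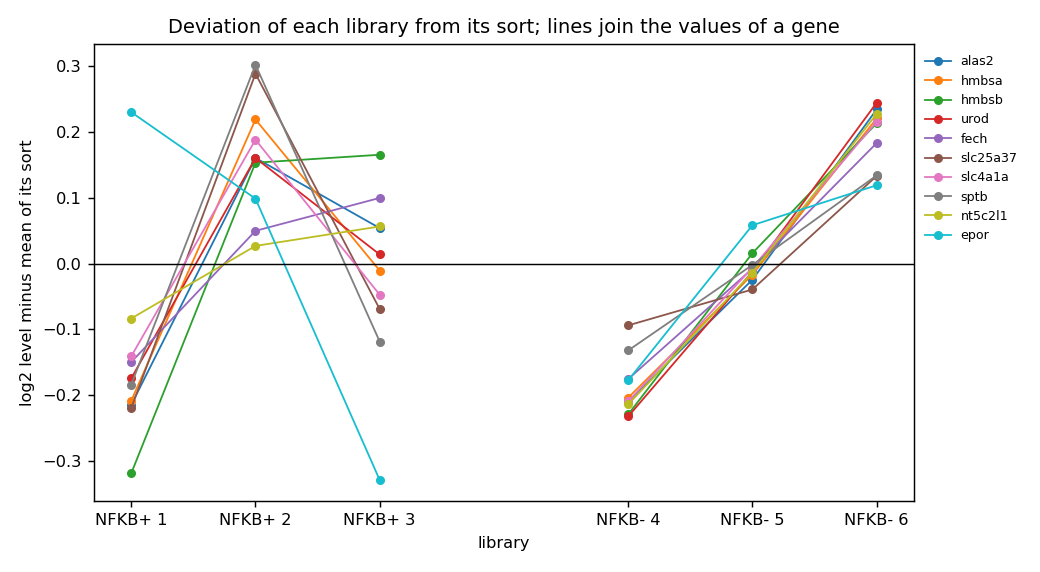
Level of each of the 10 genes in each library minus the mean of its sort, on the log2 scale, with lines joining the values of a gene within a sort. In NFKB- cells each gene is lowest in library 4 and highest in library 6, and in NFKB+ cells epor, high in library 1 and low in library 3, departs from the rest.

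Profiles over the 6 libraries were compared as the root mean square distance between genes, each centred on its own mean. The closest gene to alas2 was urod, at a distance of 0.040, followed by nmt1b at 0.041 and fam117ab at 0.048. The closest to urod were fam117ab at 0.028, alas2 and zgc:163057 at 0.046. For fech they were rfesd (0.040), which encodes a Rieske iron-sulfur domain protein, the blood group gene rhd (0.044) and ampd3b (0.051). Those of hmbsa were sh3bp5b, fam78ab and gp1bb, between 0.052 and 0.060, and those of hmbsb were hdr, tspo and tmem14ca, between 0.070 and 0.091. The closest to slc25a37 were fam78ab, sgk2a and hmbsa, between 0.061 and 0.077. For slc4a1a they were ucp3, nfe2 and slc10a4, between 0.037 and 0.055, and for sptb nfe2, tbx6l and slc4a1a, between 0.072 and 0.083. The gene nt5c2l1 was closest to the globins hbae1 (0.064), hbbe1.1 (0.069) and hbbe3 (0.080). The gene epor had slc43a3a (0.073), the microRNA gene mir223 (0.091) and phyhiplb (0.13) as its nearest. Of these 30 nearest places, the 10 genes themselves held 4. Between the 10 genes the median distance was 0.16, against 0.64 from them to all genes lower in NFKB+ cells. A distance reflects the size of the sort difference as well as the library pattern. The median log2 difference was -2.64 for the 10 and -1.52 for all genes lower in NFKB+ cells.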

How the data were processed

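Per the labels, RNA of sorted cells was made into low-input libraries. Per the submitters' processing notes, cutadapt, STAR, HTSeq, DESeq2 and the build danRer10 were used, with no versions or roles. The annotation and strand handling are not given in the sources used here. The authors deposited 1 table of 2475 rows with log2 values per library and, for their own comparison, a log2 fold change, a signed fold score and p-values. In the authors' deposited table the 10 genes had log2 fold changes from -2.97 to -2.38 and an adjusted p-value listed as 0. The deposited log2 values could be turned back into whole reads, within 0.1 read, for 100% of values under 1000 reads, so they are log2 of size-factor-scaled reads plus a pseudocount of 1. The genes mafba and efna2a, with 2 rows each, were left out. Columns name the sort and a running number, which serves here as the library number.

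limma 3.58.1 (R 4.3.3, eBayes with mean trend, no low-value filter) compared the sorts, with Benjamini-Hochberg adjustment over 2471 genes at 0.05. The step was tested on simulated data in which most genes did not change. In the filtered table every gene had been selected to differ, so that test does not give its rate of false calls. Exact permutation tests used SciPy 1.17.1. Libraries of a sort differed by a chi-square per degree of freedom of 24.5 to 112, so none looked like a copy. All 10 genes of the rule are named. Listed genes found in the table, and for each of the 10 the 3 genes with the closest profile, could be named. The members and lists were chosen with earlier results of these data known. No sequence or coordinate is given, since no genome of the files' build was used here. The alternatives are given in the closing section.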

Additional observations from a re-analysis of the deposited data

How the results depend on the processing

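The 10 genes stayed lower and past the threshold in all 140 values from alternative fits, which the authors' filter largely fixes. Those fits used a pseudocount of 8, a minimum mean of 50 normalized reads, other scalings, no mean trend, library weights, limma-voom on recovered reads, and each library left out. Their log2 differences ran from -3.85 (median ratios, which shifted the median of all genes by -0.88) to -1.92 (same total). Scaling to the same total without globins shifted that median by -0.11. The number of the 10 at 4-fold or more was 8 under the same total and 10 otherwise. Of the other pathway genes, the number higher fell from 6 to 3 under median ratios and was 5 or 6 elsewhere. Under median ratios the higher calls over the whole table fell as well, from 1347 to 920. Of 587 values for those genes 7 lost their call, 5 for slc2a1a and 1 each for socs3b and cish, and none was reversed. Without 1 library at a time, the span of the 10 falls ranged from 0.43 (without NFKB+ library 2) to 0.64, against 0.56, and the median change relative to globin from 0.23 to 0.30, against 0.26. No paired analysis was possible because the number in a column name runs over both sorts and does not match a labelled replicate. Low read numbers limit the precision of slc2a1a, tfa, cat and epor, with means of 74.4, 77.6, 112 and 179 normalized reads in NFKB+ cells.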
